A study of Mus musculus with 18 samples.

Results

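The Reg family of secreted lectins was followed through 18 mouse RNA-seq libraries. The members were the rows of the count table whose gene identifiers map to Reg1, Reg3a, Reg3b, Reg3g and Reg4, 5 of 53379 genes. They were picked by gene name, with earlier results of these data known. The other mouse Reg genes in the table, Reg2 and Reg3d, are given beside them. Recipients were female BALB/cJ mice aged 6 to 8 weeks that had been lethally irradiated, BM and BMT groups alike. The BM group received 10000000 bone marrow cells, and the BMT group received the same number of marrow cells together with 1000000 T cells. Tissue was taken on day 7, and each of the 6 groups (liver and 2 gut fractions, BM and BMT) had 3 libraries. Donor strain is not stated in the labels, no group without irradiation or transplant was included, and a gut fraction is isolated epithelium with whatever other cells it carried.

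The gut labels disagreed. The 6 libraries with the code SI in their descriptions are titled large intestine, and the 6 with the code LI are titled small intestine. A list of 20 small intestine genes summed to 29058 to 42250 CPM (counts scaled to a library total of 1000000) in the code SI libraries and 758 to 1049 CPM in the code LI libraries, while a list of 18 large intestine genes summed to 587 to 1489 CPM and 6517 to 15915 CPM. Both lists sided with the codes, so the fractions are called code SI and code LI, which are the reverse of the titles. Each tissue carries the same 6 numbers in its descriptions, read here as mice 2, 4 and 5 (BM) and mice 6, 9 and 10 (BMT); the labels do not state that these are separate animals, and if they are not, the p-values measure technical spread. Libraries held 18845483 to 25610937 counts, so that 3 counts, the floor used here for a count of 0, stood at 0.117 to 0.159 CPM. The mitochondrial share of counts was 2.77 to 10.7%, and within a tissue all BMT libraries had a lower share than all BM libraries.

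Reg genes encode small secreted proteins built around a C-type lectin fold. Reg3g binds the peptidoglycan of Gram-positive bacteria and helps to keep bacteria away from the epithelial surface of the small intestine, and Reg3b is a close relative with activity against other bacteria as well. Epithelial cells make both in response to bacterial signals through MyD88 and to interleukin 22 through STAT3. Reg1 is best known from the regenerating pancreas, and Reg4 marks secretory cells at the base of colonic crypts and enteroendocrine cells of the small intestine. In graft-versus-host disease, T cells of the graft attack the gut epithelium, and blood levels of the human REG3A protein are used as a marker of damage there.

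On the GRCm38 build, 6 of the 7 genes lie side by side on chromosome 6 and Reg4 lies apart on chromosome 3. From low to high coordinate the cluster holds Reg3b (ENSMUSG00000071356.7, 78370657 to 78373466, plus strand), Reg3d (78375874 to 78378865, minus strand), Reg3a (ENSMUSG00000079516.2, 78380709 to 78383827, plus strand), Reg2 (78395623 to 78408106, plus strand), Reg1 (ENSMUSG00000059654.7, 78422711 to 78428667, plus strand) and Reg3g (ENSMUSG00000030017.2, 78466269 to 78468872, minus strand). Reg4 (ENSMUSG00000027876.4) spans 98222156 to 98236748 on the plus strand of chromosome 3. In the GENCODE annotation no other gene overlaps any of them, and no run of 50 bases is shared between the transcripts of any pair, so that read pairs could be told apart; the closest transcripts, Reg3b and Reg3g, were 72.3% identical.

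The stretches just before the start sites are shown for the pair of members with the most counts, which moved together, and for Reg4, which moved less in code LI. Each is the 150 bases before the RefSeq start (GRCm38.p6), 5′ to 3′ on the strand of the gene, with motif matches in capitals: chr6:78370735-78370884 on the plus strand for Reg3b, chr6:78468875-78469024 on the minus strand for Reg3g and chr3:98222006-98222155 on the plus strand for Reg4.
Reg3b: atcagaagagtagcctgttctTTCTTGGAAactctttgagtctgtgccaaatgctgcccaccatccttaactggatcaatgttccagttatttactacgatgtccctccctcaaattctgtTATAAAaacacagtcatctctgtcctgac
Reg3g: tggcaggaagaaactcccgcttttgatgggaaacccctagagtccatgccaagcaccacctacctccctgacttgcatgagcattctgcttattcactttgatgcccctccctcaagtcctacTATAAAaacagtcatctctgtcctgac
Reg4: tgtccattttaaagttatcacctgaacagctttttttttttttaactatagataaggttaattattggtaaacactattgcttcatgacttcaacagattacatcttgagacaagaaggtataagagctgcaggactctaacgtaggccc
The windows of Reg3b and Reg3g were 71.3% identical, against 56.7% for either with Reg4. Both carry the TATA box letters TATAAA, 29 to 24 bases before the start in Reg3b and 27 to 22 bases before it in Reg3g; 7.57% of 32851 RefSeq windows of this length held these letters on either strand. Reg3b alone of the 3 carries the STAT letters TTCNNNGAA, 129 to 121 bases before the start, which 4.09% of windows held. The interferon response letters, a pair of GAAA with 2 bases between them (1.59% of windows), the AP-1 letters TGANTCA (4.24%) and the CDX letters TTTATG (6.33%) had no match in the 3 windows, and Reg4 matched none of the 5. A match is a run of letters on either strand, not a site, and matches did not overlap. Of the Reg genes whose windows are not printed, Reg1 and Reg2 also held TATAAA, 30 to 25 bases before the start. Reg3a and Reg3d, which also fell in code SI, did not hold it, and Reg1 held the AP-1 letters. Whether any match bears on the levels was not tested.

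Reg transcripts stood far lower in both gut fractions when T cells were in the graft. Together the 7 Reg genes took 2.06, 1.81 and 2.19% of all counts in the BM libraries of mice 2, 4 and 5 in code SI, and 0.0908, 0.289 and 0.481% in the BMT libraries of mice 6, 9 and 10. In code LI they took 0.306, 0.287 and 0.366% in BM and 0.0495, 0.0624 and 0.0943% in BMT. No BMT library reached the lowest BM library of its fraction. Fold changes below are BMT over BM on the log2 scale with a standard error, and p-values come from the quasi-likelihood test of edgeR, adjusted by Benjamini-Hochberg over all genes of the fit, with calls at 0.05. A ± on CPM is a standard deviation over 3 libraries. In bulk RNA, fewer cells of a type and less RNA per cell cannot be told apart.

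**Figure D1:**
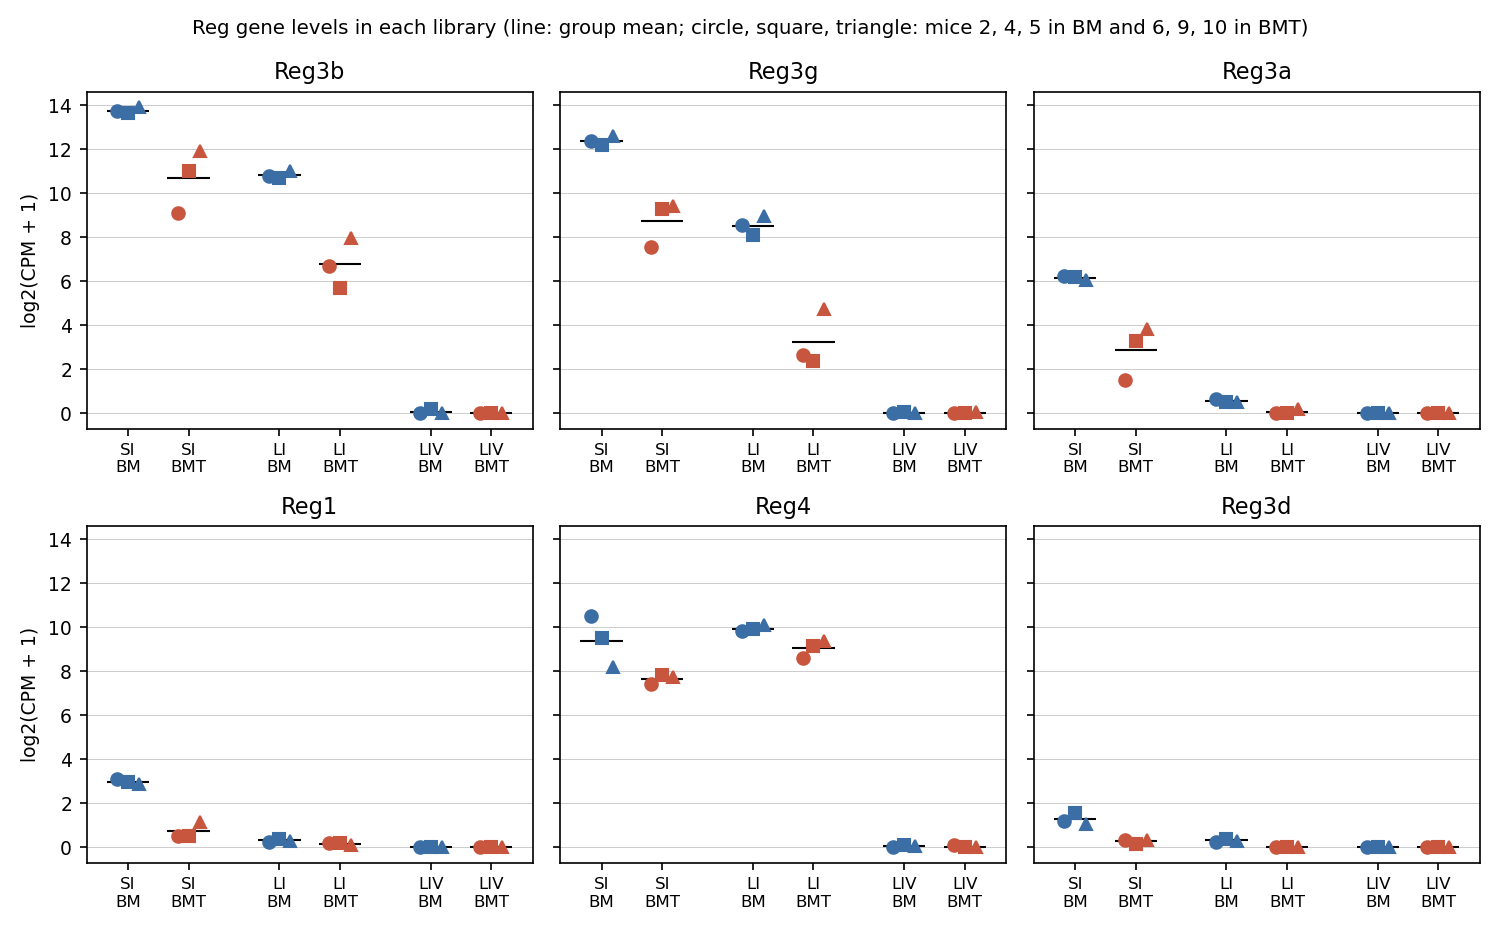
Levels of 6 Reg genes in all 18 libraries as log2(CPM + 1), by code (SI, LI, LIV for liver) and treatment; each point is a library, the shapes stand for mice, and the line is the mean of the 3 log values. Reg3b and Reg3g are high in SI BM and lower in every BMT library, Reg4 has a wide SI BM group, and liver sits near 0 throughout.

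Reg3b was the most abundant member. In code SI it stood at 13641, 12644 and 15319 CPM in the BM libraries and at 550, 2035 and 3899 CPM in the BMT libraries. The groups did not overlap, and the BMT libraries spread over a wider range than the BM libraries. Reg3b fell by 2.61 ± 0.54 on the log2 scale (edgeR adjusted p = 0.00543, n = 3 per group). In code LI it stood at 1770, 1634 and 2073 CPM in BM and 103, 50.5 and 246 CPM in BMT, a fall by 3.73 ± 0.50 (edgeR adjusted p = 0.000197). Mouse 10 had the highest BMT value in both fractions: without its library the fitted change was -3.40 in code SI and -4.59 in code LI.

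Reg3g, the peptidoglycan-binding member, showed the largest fitted fall of the members tested, 5 in code SI and 3 in code LI. In code SI Reg1 (-3.23 ± 0.41) was close, and over the alternative analyses Reg1 reached -3.99 and Reg3g -3.74, so their order is not settled. Reg3g stood at 5359, 4607 and 6244 CPM in BM and 186, 615 and 677 CPM in BMT in code SI, a change of -3.40 ± 0.42 (edgeR adjusted p = 0.000232). In code LI the values were 374, 270 and 495 CPM in BM and 5.32, 4.22 and 25.4 CPM in BMT, a change of -4.98 ± 0.64 (edgeR adjusted p = 0.000161). Every BMT library lay below every BM library of its fraction. Without the code LI library of mouse 10, the highest of the 3, the code LI change was -6.34.

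Reg3a and Reg1 were transcripts of code SI almost alone. Reg3a stood at 74.7, 72.4 and 65.7 CPM in the BM libraries and 1.86, 8.8 and 13.3 CPM in the BMT libraries of code SI, and fell by 3.07 ± 0.49 (edgeR adjusted p = 0.00118). Reg1 stood at 7.77, 6.79 and 6.29 CPM and at 0.425, 0.429 and 1.24 CPM, and fell by 3.23 ± 0.41 (edgeR adjusted p = 0.000267). The BM libraries lay close together for both genes, and mouse 10 again had the highest BMT value. Without its library the change was -3.69 for Reg3a and -3.99 for Reg1. The 3 BMT libraries of Reg1 held 8 to 29 counts each.

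In code LI, Reg3a and Reg1 were too scarce to enter the test. Reg3a had 31 counts over the 3 BM libraries and 3 over the BMT libraries, a ratio of BM to BMT of 10 (exact 95% interval 3.13 to 51.3, counting error only). Reg1 had 17 and 8 counts, a ratio of 2.07 (0.845 to 5.53), so that a difference was not detectable at this depth.

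Reg4, which encodes the member on chromosome 3, was the least alike of the abundant members. In code SI its BM libraries stood apart from each other at 1467, 729 and 289 CPM, and its BMT libraries stood at 170, 227 and 216 CPM. The groups did not overlap, but the lowest BM library, that of mouse 5, lay near the BMT values. Reg4 fell by 1.99 ± 0.45 in code SI (edgeR adjusted p = 0.00918), and by 1.24 on the log2 scale without the BM library of mouse 2. In code LI it stood at 919, 962 and 1088 CPM in BM and 386, 569 and 671 CPM in BMT, a change of -0.85 ± 0.21 (edgeR adjusted p = 0.00752). This call in code LI did not hold in a fit of all 18 libraries with a shared spread (adjusted p = 0.114).

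Of the Reg genes outside the member list, Reg3d stood at 1.32, 1.95 and 1.07 CPM in BM and 0.265, 0.129 and 0.257 CPM in BMT in code SI, and fell by 2.67 ± 0.45 (edgeR adjusted p = 0.00163). In code LI it had 17 counts in BM and none in BMT, at least 5.51-fold lower against a floor of 3 counts over the group. Reg2 had 1 count in all 18 libraries.

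**Figure D2:**
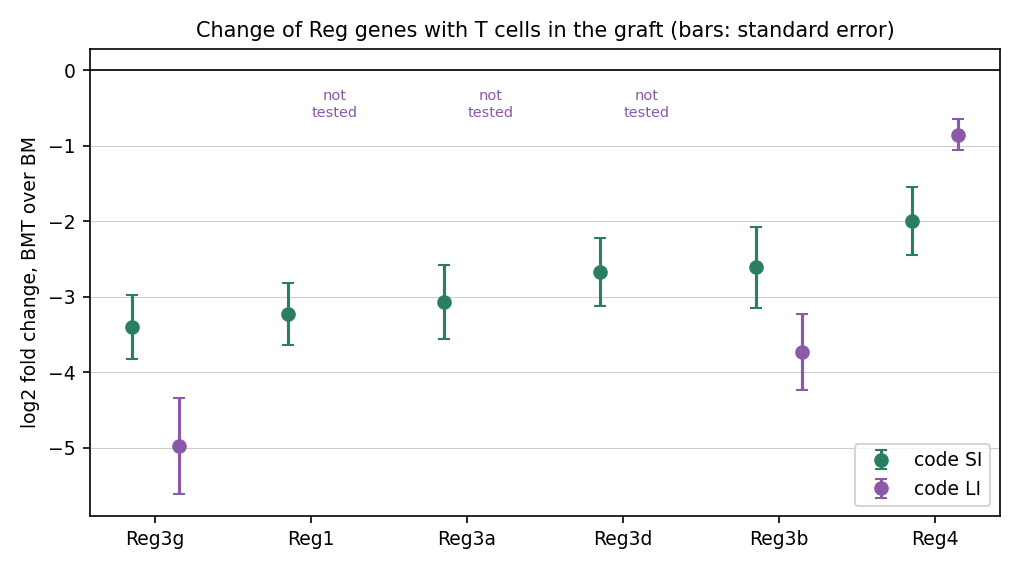
Fitted log2 fold change of BMT over BM for 6 Reg genes in code SI and code LI; points are edgeR estimates from 3 against 3 libraries and bars are standard errors. All points lie below 0, with Reg3g lowest (-3.40 and -4.98) and Reg4 highest (-1.99 and -0.85); Reg1, Reg3a and Reg3d were not tested in code LI.

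Counted as a family, 5 of 5 members were called lower in code SI, where 11.8% of 14621 tested genes were called lower, 11.6% higher and 23.4% in either direction. In code LI, 3 of 5 members entered the test and all 3 were called lower, where 21% of 14880 genes were called lower, 20.4% higher and 41.4% in either direction. Reg1 and Reg3d passed the low-count filter in code SI through their BM libraries only, so that their part in this count is no support; Reg3b, Reg3g and Reg4 had counts enough in both groups of both fractions. The median change of the tested Reg genes, Reg3d included, was -2.87 in code SI (6 genes) and -3.73 in code LI (3 genes), and that of all tested genes was 0.02 and 0.00.

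The ratio of Reg3g to Reg3b did not overlap between the groups in either fraction, though 3 against 3 libraries cannot pass the threshold in a permutation test. In code SI, the BM libraries held 0.393, 0.364 and 0.408 counts of Reg3g per count of Reg3b, and the BMT libraries 0.337, 0.302 and 0.174. In code LI the ratio was 0.211, 0.165 and 0.239 in BM and 0.0515, 0.0836 and 0.103 in BMT. Every BMT value lay below every BM value of its fraction, that is, Reg3g stood lower relative to Reg3b in BMT than in BM. The exact two-sided permutation p was 0.1 in each fraction (n = 3 per group), the smallest that 3 against 3 libraries allow, and 0.15 after adjustment over 6 such tests.

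Reg4 took up the larger part of what remained in code LI. Of the counts of the 7 Reg genes there, Reg4 held 30, 33.6 and 29.7% in BM and 78, 91.2 and 71.2% in BMT (31.1 ± 2.14% and 80.1 ± 10.2%, exact permutation p = 0.1, adjusted 0.15, n = 3 per group). Reg3b held 57.2 ± 0.556% and 18.4 ± 9.27% of them (exact permutation p = 0.1, adjusted 0.15). In code SI, Reg3b stayed the main transcript of the family with 68.7 ± 2.06% and 70.7 ± 10.3% (exact permutation p = 0.7, adjusted 0.7), and Reg4 held 7.14, 4.04 and 1.32% in BM and 18.7, 7.86 and 4.48% in BMT, which overlapped (exact permutation p = 0.2, adjusted 0.24).

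**Figure D3:**
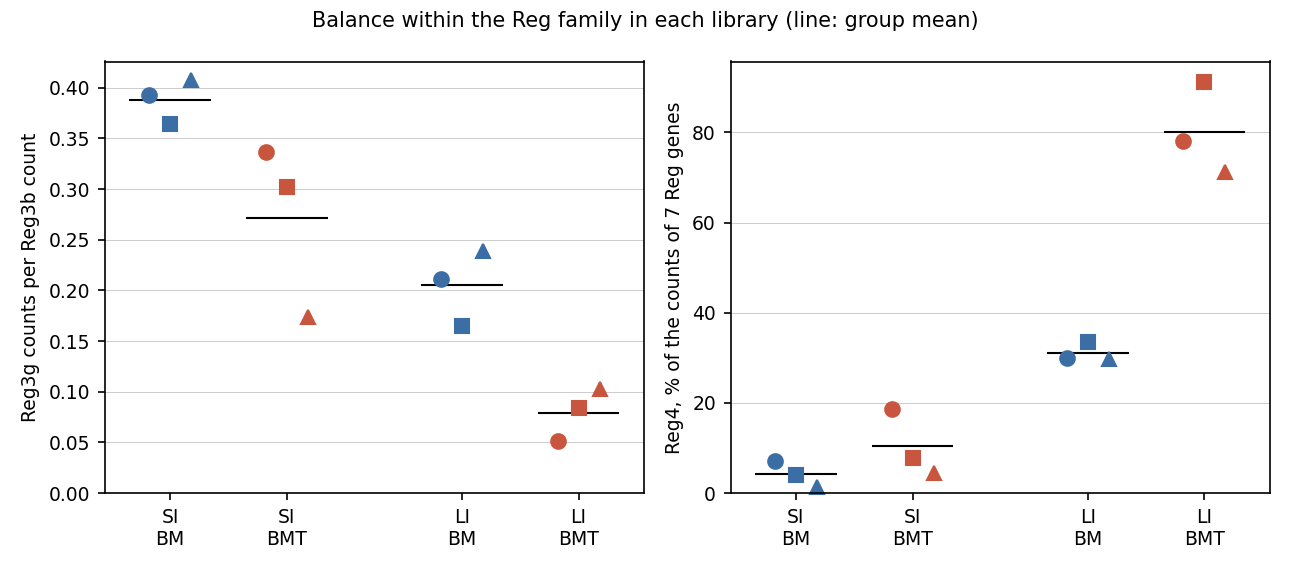
Left, Reg3g counts per Reg3b count; right, Reg4 as a percentage of the counts of the 7 Reg genes, in each gut library; points are libraries and lines are group means. The ratio is lower in the BMT libraries of both fractions (mean 0.388 and 0.271 in SI, 0.205 and 0.0794 in LI), and Reg4 reaches 71.2 to 91.2% of the family in LI BMT.

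Levels between genes were compared per length, as mean CPM per kilobase of the longest annotated coding transcript. In code SI BM libraries the order was Reg3b (17711), Reg3g (7008), Reg4 (811), Reg3a (86) and Reg1 (7.69). In code LI BM libraries it was Reg3b (2332), Reg4 (969), Reg3g (492), Reg3a (0.563) and Reg1 (0.277). With T cells in the graft, Reg4 (531) came before Reg3b (170) and Reg3g (15.1) in code LI, while Reg3b (2760) stayed ahead of Reg3g (639) and Reg4 (200) in code SI. The length of Reg3g in the count table, 2114 bases, includes a transcript with a retained intron, and the coding transcript used here has 771.

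Most members also differed in level between the fractions. In BM mice, 4 of 5 members were called higher in code SI than in code LI, where 13.1% of 17275 tested genes were called higher, 14.0% lower and 27.1% in either direction. Reg1 and Reg3a passed the low-count filter through their code SI libraries only, where they are high, so their part in this count, and in that for BMT mice, is no support. These fits paired the fractions by the mouse number of the descriptions. The intervals on count ratios cover counting error only, not the spread between mice. Reg3g was higher by 3.84 ± 0.37 on the log2 scale (edgeR adjusted p = 1.65e-06) and Reg3b by 2.91 ± 0.47 (edgeR adjusted p = 0.000429). From summed counts, Reg3a was 155 times as frequent in code SI (exact 95% interval 109 to 228, 4529 and 31 counts) and Reg1 27.7 times (17.1 to 48, 444 and 17 counts). Reg4 was the exception: it stood at 828 ± 595 CPM in code SI and 990 ± 87.6 CPM in code LI (-0.55 ± 0.38, edgeR adjusted p = 0.33), and without mouse 2 it was called lower in code SI (-1.21, edgeR adjusted p = 0.021).

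In BMT mice 5 of 5 members were called between the fractions, 4 higher in code SI (9.64% of genes) and Reg4 lower (12.3% of genes, 22.0% in either direction). Reg3g differed by 5.68 ± 0.42 (edgeR adjusted p = 1.2e-07) and Reg3b by 3.96 ± 0.51 (edgeR adjusted p = 8.11e-05). Reg3a had 550 counts in code SI and 3 in code LI, a ratio of 184 (62.5 to 893). Reg1 had 47 and 8 counts, a ratio of 5.89 (2.76 to 14.4), and its call did not hold without mouse 10 (edgeR adjusted p = 0.107). Reg4 was lower in code SI by 1.34 ± 0.37 as a log2 difference (-1.34, edgeR adjusted p = 0.0152), a call that was lost by the DESeq2 Wald test (adjusted p = 0.14) and without mouse 6, 9 or 10 (edgeR adjusted p = 0.0653, 0.0633 and 0.0735).

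Ranked over the 4 gut groups, Reg3b ran from 13868 ± 1352 CPM in SI BM through SI BMT (2161 ± 1678) and LI BM (1826 ± 225), whose libraries overlapped, to 133 ± 101 CPM in LI BMT. Reg3g had the same order, with 5404 ± 819, 492 ± 267, 380 ± 113 and 11.7 ± 11.9 CPM, and again SI BMT and LI BM overlapped. Reg4 ran from LI BM (990 ± 87.6) and SI BM (828 ± 595) through LI BMT (542 ± 144), each overlapping SI BM, to 204 ± 30 CPM in SI BMT, which lay below all others. Reg3a ran from 70.9 ± 4.67 CPM in SI BM and 7.98 ± 5.76 CPM in SI BMT, which did not overlap, to 0.465 ± 0.0838 CPM in LI BM.

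Whether the effect of T cells differed between the fractions was tested as an interaction in the model of all 18 libraries. Of 5 members, 1 was called, where 4.91% of 17275 genes were called (2.40% in its direction and 2.51% in the other). Reg3g fell further in code LI, with a difference SI minus LI of 1.83 ± 0.50 on the log2 scale (edgeR adjusted p = 0.0475), and this call was lost in 9 of 13 alternative analyses, among them those without mouse 2, 4, 5, 6 or 9 (log2 range 1.12 to 2.33, adjusted p up to 0.253). The difference was 1.06 ± 0.64 for Reg3b (edgeR adjusted p = 0.393) and -0.79 ± 0.53 for Reg4 (edgeR adjusted p = 0.429), neither of which passed. For Reg1 and Reg3a the adjusted p was 0.135 and 0.933, with too few code LI counts to give a difference.

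Liver held almost no Reg transcripts. The 7 Reg genes had 10 counts in all of 135971623, spread over 6 of 42 values, with no value above 3 counts. No member passed the low-count filter there, where 10.8% of 14134 tested genes were called (7.46% higher, 3.35% lower). With no filter 3 members could be fitted by edgeR, of which 0 were called and 0 had an unadjusted p under 0.05; DESeq2 and limma-voom tested none.

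Cytokines, receptors and signalling genes were taken as lists written with earlier results of these data known. Not every listed gene is an established regulator of Reg transcription. Of 14 cytokines, 7 were tested in code SI, of which 3 were called higher and 0 lower, and 8 in code LI, of which 7 were higher and 1 lower (median change 0.47 and 3.68, all genes 0.02 and 0.00). Over all tested genes, the shares to set beside this and the following lists were 11.6% higher and 11.8% lower in code SI, and 20.4% higher and 21% lower in code LI. Ifng, Csf2, Osm, Il1b and Il33 passed the low-count filter in code LI through their BMT libraries, where they are high. So did Ifng and Csf2 in code SI, and their part in these counts and medians is no support. Members of the following lists that were scarce in 1 group carry the same limit. Ifng, the main cytokine of activated T cells, had 0 counts in the code SI BM libraries and 3.56, 3.6 and 3.3 CPM in BMT, at least 73.9-fold higher; in code LI it had 2 counts in BM and 9.39, 9.69 and 5.29 CPM in BMT. Csf2, a growth factor of myeloid cells, stood at 0.531, 0.558 and 0.9 CPM in code SI BMT and 5.9, 5.66 and 4.86 CPM in code LI BMT, against 2 counts in code LI BM (ratio 185, exact 95% interval 50.9 to 1535). Its call in code SI (edgeR adjusted p = 0.0128) was lost without the BM library of mouse 4 (edgeR adjusted p = 0.0502). Il33, an epithelial alarm cytokine, rose by 3.26 ± 0.66 in code LI (edgeR adjusted p = 0.00261; 2.17 without mouse 6) and by 1.65 ± 0.52 in code SI (edgeR adjusted p = 0.0412), where the call was lost in 5 of 14 alternatives, among them those without any 1 of the BM libraries or without mouse 6 (0.78).

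Il18, an epithelial cytokine, was called lower with Reg3b and Reg3g in code LI. It stood at 80.9, 77.3 and 84.1 CPM in BM and 3.09, 5.25 and 6.63 CPM in BMT there (-4.0 ± 0.25, edgeR adjusted p = 1.12e-06), and at 16.5, 16.5 and 26.4 CPM against 22.8, 6.26 and 14.6 CPM in code SI (-0.39 ± 0.37, edgeR adjusted p = 0.488). The difference between fractions passed (3.57, edgeR adjusted p = 0.000871). Il22, the cytokine with the best known action on Reg3b and Reg3g, was at the limit of detection in these epithelial fractions: 4 counts in BM and 4 in BMT in code LI, 2 and 0 in code SI, and 0 in liver.

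Of 26 receptor and signalling genes, 24 were tested in each fraction; 4 were higher and 4 lower in code SI, and 4 higher and 6 lower in code LI (median 0.09 and 0.07), close in code LI to the 41.4% of all genes called there. Stat3, the transcription factor downstream of interleukin 22, was at 122, 158 and 147 CPM in BM and 141, 168 and 162 CPM in BMT in code SI (0.19 ± 0.15, edgeR adjusted p = 0.398) and changed by 0.16 ± 0.13 in code LI (edgeR adjusted p = 0.371). Il22ra1, the receptor chain, rose by 0.67 ± 0.22 in code SI at the edge of the threshold (edgeR adjusted p = 0.0498, lost in 9 of 14 alternatives) and changed by 0.17 ± 0.16 in code LI (edgeR adjusted p = 0.416). Of its losses in code SI, lane 2 alone and the fit without mouse 9 are the same fit. Extl3, described as a receptor of Reg proteins, changed by -0.16 ± 0.16 and -0.14 ± 0.13 (edgeR adjusted p = 0.512 and 0.404).

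Socs3, a feedback inhibitor that STAT3 induces, fell in code SI from 103, 82.7 and 101 CPM to 23.1, 27.3 and 31.8 CPM (-1.75 ± 0.18, edgeR adjusted p = 7.76e-05). In code LI it was at 58.7, 51.6 and 28.1 CPM and at 41.9, 28.8 and 34.6 CPM, which overlapped (-0.38 ± 0.25, edgeR adjusted p = 0.247; called without the BM library of mouse 5, adjusted p = 0.0323). Nfkbiz, an inducible regulator of NF-kB target genes, fell by 1.35 ± 0.15 in code SI (edgeR adjusted p = 0.00013) and by 0.80 ± 0.15 in code LI (edgeR adjusted p = 0.00216). Tlr5, the flagellin receptor, fell by 3.15 ± 0.29 in code LI (edgeR adjusted p = 1.7e-05) and by 1.33 ± 0.35 in code SI (edgeR adjusted p = 0.0192, lost in 4 of 14 alternatives). Among these losses, lane 2 alone and the fit without mouse 9 are the same fit. Il18r1, carried by T cells among others, rose by 5.25 ± 0.54 and 5.26 ± 0.49 (edgeR adjusted p = 6.17e-05 and 1.57e-05), and Nod2, a sensor of peptidoglycan fragments, rose by 1.16 ± 0.20 in code LI (edgeR adjusted p = 0.00117).

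Other epithelial targets of interleukin 22 and STAT3 were called in both directions. Of 26 listed, 23 were tested in code SI, with 2 higher and 7 lower (median -0.39; all genes 11.6% and 11.8%), and 24 in code LI, with 10 higher and 7 lower (median -0.00; all genes 20.4% and 21%). Tifa, an adaptor that senses bacterial sugars, fell with the Reg genes in both fractions (-2.02 ± 0.16 and -1.40 ± 0.20, edgeR adjusted p = 1.39e-05 and 0.000296). Nos2, which makes nitric oxide, went opposite ways: it fell from 179, 155 and 165 CPM to 66, 55.2 and 50.2 CPM in code SI (edgeR adjusted p = 6.33e-05) and rose from 29.8, 16.1 and 16.9 CPM to 67.2, 143 and 165 CPM in code LI (edgeR adjusted p = 0.000187). C3 of the complement system rose in both (1.44 ± 0.18 and 3.05 ± 0.33, edgeR adjusted p = 0.000251 and 4.36e-05). The kinase gene Pim1 and the transglutaminase gene Tgm2 rose in code LI (1.46 ± 0.14 and 1.67 ± 0.13, edgeR adjusted p = 2.11e-05 and 5.59e-06) and did not pass in code SI (0.46 ± 0.18 and -0.17 ± 0.17).

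**Figure D4:**
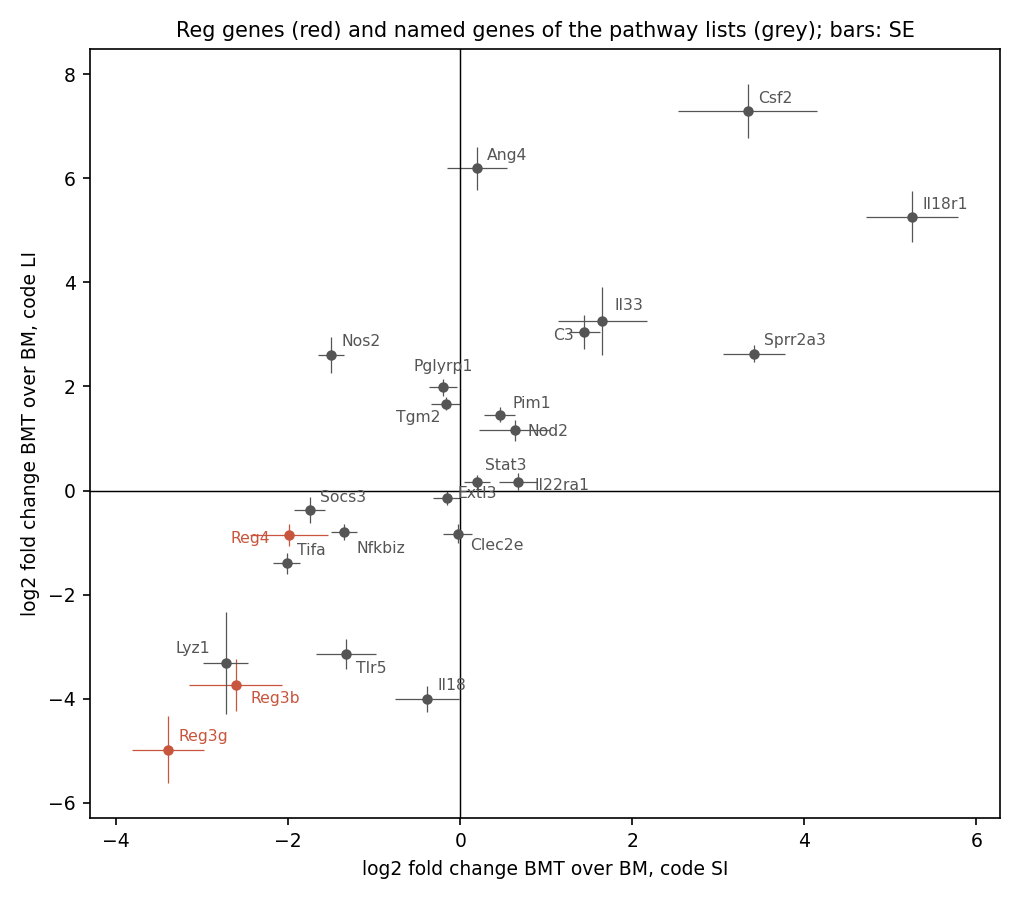
Log2 fold change of BMT over BM in code SI (horizontal) and code LI (vertical) for the Reg genes tested in both (red) and the named genes of the pathway lists (grey), with standard errors as bars; Ifng, at 0 counts in SI BM, is left out. Reg3g, Reg3b and Reg4 lie in the lower left with Tifa, Nfkbiz and Tlr5, while Nos2 lies upper left and Il18 bottom centre.

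Other antimicrobial genes of the epithelium were also called in both directions. Of 30 listed, 23 were tested in code SI, with 6 higher and 10 lower (median -0.20; all genes 11.6% and 11.8%), and 21 in code LI, with 12 higher and 7 lower (median 0.83; all genes 20.4% and 21%). Lyz1, the Paneth cell lysozyme, fell in code SI from 7191, 6661 and 4860 CPM to 790, 1241 and 718 CPM (-2.73 ± 0.26, edgeR adjusted p = 3.8e-05). The defensin gene Defa26 fell from 40.3, 39.4 and 28.6 CPM to 2.49, 4.03 and 4.67 CPM there (edgeR adjusted p = 1.73e-05) and had no counts in code LI. Against these, Ang4, a ribonuclease of Paneth and goblet cells, was at 5.5, 5.39 and 15.1 CPM in BM and 568, 586 and 733 CPM in BMT in code LI (6.19 ± 0.41, edgeR adjusted p = 1.6e-06; 6.89 without the BM library of mouse 5) and did not pass in code SI (0.19 ± 0.35, edgeR adjusted p = 0.742). Sprr2a3, of a family of small proline-rich epithelial proteins, rose in both fractions (3.41 ± 0.36 and 2.63 ± 0.16, edgeR adjusted p = 8.23e-05 and 8.01e-07; 4.04 in code SI without the BM library of mouse 2), and Pglyrp1, a peptidoglycan recognition protein, rose in code LI by 1.98 ± 0.17 (edgeR adjusted p = 1.02e-05).

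Few lectins of the same fold outside the Reg family had counts enough to test in the gut fractions. Of 20 C-type lectin genes, 3 were tested in code SI, of which 0 were called by edgeR and 1 had an unadjusted p under 0.05, and 4 in code LI, of which 1 was higher and 1 lower. Clec7a, a receptor of myeloid cells, rose by 3.89 ± 0.54 in code LI (edgeR adjusted p = 0.000263), and Clec2e, a membrane lectin of gut epithelium, fell by 0.83 ± 0.18 there (edgeR adjusted p = 0.00427).

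In code SI, markers of Paneth, goblet, enteroendocrine and crypt cells were called lower more often than higher, and those of enterocytes the other way; over all tested genes 11.8% were called lower and 11.6% higher. Which of these cells carry the Reg transcripts is not resolved in bulk RNA. Of the Paneth cell markers, 9 of 12 tested were lower and 0 higher (median -1.73), and their sum went from 16572 to 24510 CPM in BM to 3638 to 7374 CPM in BMT. Of the enteroendocrine markers, 14 of 16 were lower (median -1.88; sum 535 to 698 CPM and 89.1 to 190 CPM). Of the goblet cell markers, 7 of 13 were lower (median -0.57; 11546 to 14806 CPM and 4472 to 8682 CPM), and of the crypt stem and progenitor markers 7 of 12 were lower and 1 higher (median -0.94). Enterocyte markers went the other way, with 10 of 17 higher and 1 lower (median 0.83; 16422 to 19265 CPM and 26706 to 37570 CPM), as did tuft cell markers with 7 of 8 higher (median 2.98). T cell markers were higher in 15 of 15 (sum 4.39 to 14.6 CPM and 224 to 333 CPM). Some T cell and tuft cell markers were scarce in BM (tuft sum 2.62 to 8.86 CPM) and passed the low-count filter through their BMT libraries. Their part in these counts is no support. The part of these shifts, and of the lower mitochondrial share, in the fall of the Reg genes was not tested.

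In code LI, where 21% of all tested genes were called lower and 20.4% higher, the secretory lists had calls in both directions. Paneth cell markers were higher in 4 of 9 tested (Ang4, Itln1, Pla2g2a and Mmp7) and lower in 1 (Lyz1), with a median of -0.15. Their sum stood at 563 to 702 CPM in BM and 1959 to 2623 CPM in BMT, most of it from Pla2g2a (mean 380 and 1032 CPM), Ang4 (8.65 and 629 CPM) and Itln1 (58.8 and 415 CPM), and Defa21, Defa22, Defa23 and Defa26 had no counts. Lyz1 stood at 0.713, 0.539 and 5.12 CPM in BM and 0.492, 0.0898 and 0.0477 CPM in BMT. Its call was lost without the BM library of mouse 5 (edgeR adjusted p = 0.159) and without the BMT library of mouse 9 (edgeR adjusted p = 0.0732). Goblet cell markers were lower in 3 of 13 and higher in 1 (median -0.21; 8862 to 10348 CPM and 8305 to 16777 CPM), and enteroendocrine markers were lower in 4 of 15 and higher in 2 (median -0.26; 361 to 426 CPM and 283 to 490 CPM). Enterocyte markers were higher in 5 of 16 and lower in 6. T cell markers were higher in 15 of 15 (7.13 to 9.33 CPM and 417 to 676 CPM), and neutrophil and monocyte markers in 7 of 8 (in code SI 3 of 8, with 1 lower). Some of these were scarce in code LI BM, with Cd5 at 0 counts and S100a9 at 1 count. Such markers passed the low-count filter through their BMT libraries, so their part in these counts is no support. Innate lymphoid cells of type 3, a main source of interleukin 22, left few marker transcripts: in code LI 1 of 5 tested markers was higher and 2 were lower (sum 105 to 111 CPM and 60.2 to 68.3 CPM), and in code SI 1 of 4 was higher and 1 lower (81.5 to 97.5 CPM and 52 to 80.2 CPM).

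**Figure D5:**
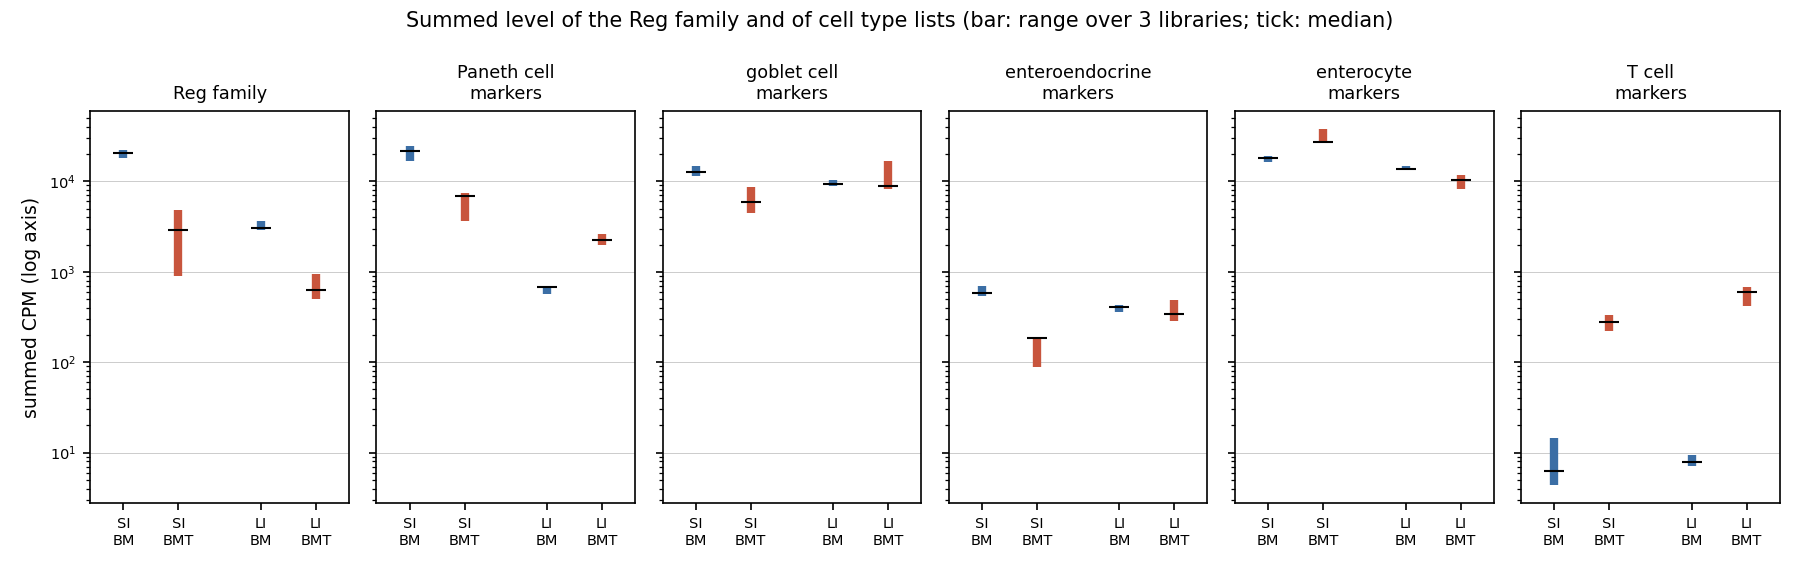
Summed CPM of the 7 Reg genes and of 5 marker lists in the gut groups on a shared log axis; bars span the 3 libraries of a group and ticks are medians. In SI the Reg, Paneth, goblet and enteroendocrine sums are all lower in BMT. In LI the Reg sum is lower (2867 to 3657 and 495 to 943 CPM) and the Paneth sum is higher, carried by Pla2g2a, Ang4 and Itln1. The median change of the tested Paneth markers in LI is -0.15, and Lyz1 was called lower there, a call lost in 2 of 14 alternatives.

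Pancreatic tissue, where Reg1 and Reg2 are abundant, left few marker transcripts in the code SI fraction. Of 15 acinar markers, 9 had no counts in the code SI BM libraries, among them the trypsin genes Prss2, Try4 and Try5, and the sum of the list was 5.93 to 12.2 CPM in BM and 3.77 to 5.41 CPM in BMT. Reg1 had 123 to 171 counts in each of these BM libraries, and the source of its transcripts was not tested. In code LI the sum was 60.2 to 90.3 CPM in BM and 9.39 to 12.8 CPM in BMT, where the elastase gene Cela1 was the 1 tested marker and was called lower. There too 9 of the 15 markers, the same trypsin genes among them, had no counts in the BM libraries, and 3 had none in the BMT libraries. Of markers of B and plasma cells, 1 of 5 tested was higher and 2 lower in code SI and 1 of 4 higher in code LI; of stromal and endothelial markers, 1 of 6 and 1 of 7 were higher.

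The genes most like each abundant member over the 12 gut libraries, after subtracting the mean of each fraction from log2(CPM + 1), were ranked among 13993 genes as a description. The 12 points share 2 fractions and 2 treatments, so that any gene that moved with the treatment ranks high. The genes were picked over these same libraries, so an order of mice shared with a member follows in part from the picking. Closest to Reg3b were Acvr1b (r = 0.99), AI464131 (0.98) and Steap3 (0.98), and closest to Reg3g were Slc25a35 (0.99), Steap3 (0.99) and Ces1e (0.98). Steap3, a metalloreductase gene, is on both lists, and stood at 26.5, 28 and 31.7 CPM in BM and 4.62, 6.95 and 10.8 CPM in BMT in code SI, and at 41.5, 43.1 and 41.4 CPM and 5.14, 6.6 and 12.9 CPM in code LI. As with Reg3b, mouse 10 was the highest BMT library in both fractions. Closest to Reg4 were Gm14097 (0.95), Lurap1l (0.94) and Hoxb4 (0.94). Their changes were -1.37, -0.35 and -1.54 in code SI and -1.02, -0.07 and -0.66 in code LI. Lurap1l was called in neither fraction (edgeR adjusted p = 0.141 and 0.659), and Gm14097 was not called in code LI (edgeR adjusted p = 0.0749). In the code SI BM libraries all 3 genes ran from high to low over mice 2, 4 and 5, as Reg4 did. Among the members themselves r was 0.98 for Reg3b with Reg3g, 0.70 for Reg3b with Reg4 and 0.71 for Reg3g with Reg4.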

How the data were processed

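The 18 libraries were poly-A selected, stranded and read from both ends, per the labels' protocols. The table that the authors deposited holds raw counts of 53379 genes. The submitters' processing notes name GRCm38.p5, STAR 2.7.0e, featureCounts 1.6.3 and FastQC 0.11.9; the annotation release and strand setting: not given in the sources used here. The recipients are BALB/cJ and the build is C57BL/6J, so reads over differing bases may be lost. Symbols came from GENCODE release 21 for mouse (53274 IDs matched; 0.00257% of counts unmatched).

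CPM was computed from these counts and library totals, which sets the counting precision (3 counts equal 0.117 to 0.159 CPM). Each tissue was fitted with edgeR 4.0.16 in R 4.3.3 (filterByExpr, TMM, two-sided quasi-likelihood F-test); the standard error is the fold change over the square root of F. Differences between fractions came from 1 model of 18 libraries with mouse as a block, since the descriptions repeat 6 numbers; deviations of the same mouse correlated at -0.16 to 0.32 between tissues. Groups follow the description codes. DESeq2 1.42.0, limma-voom (limma 3.58.1), other filters, blocks, lane 2 alone and single libraries left out were tried. In the gut, only the BMT libraries of mouse 9 in code SI and mouse 10 in code LI were on lane 1. Lane 2 alone therefore only leaves out that library of a fraction and is no separate check there. Scripts were tested on simulated counts.

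The members and lists were chosen with earlier results of these data known. Named genes are all Reg genes, the 3 called members with the smallest p of each pathway list in each fraction, Il22, Il22ra1, Stat3, Socs3 and Extl3, and the 3 genes most like each member tested in both fractions; marker genes named beside a count of 0, the markers called in code LI, and Cela1, were chosen after their values were seen. Ratios and exact intervals are from summed counts and cover counting error only; folds against 0 use 3 counts over the group.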

Additional observations from a re-analysis of the deposited data

Results flagged for a closer look

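Of 33 named genes tested in both fractions, 10 had an effect of T cells that differed between the fractions in the interaction test (log2 difference, code SI minus code LI, edgeR adjusted p), where 4.91% of 17275 genes were called. Many of these genes were named for a small p within 1 fraction, which favours such a call, so the count says nothing of the lists. Among the Reg genes this was Reg3g (1.83, adjusted p = 0.0475; lost in 9 of 13 alternatives). Among regulators and receptors these were Socs3 (-1.42, adjusted p = 0.0197), lower with T cells in code SI, and Il18 (3.57, adjusted p = 0.000871) and Tlr5 (1.81, adjusted p = 0.0449), whose fitted falls were larger in code LI. Nos2 fell in code SI and rose in code LI (-4.03, adjusted p = 0.000178). Tgm2 (-1.82, adjusted p = 0.0177), Pim1 (-0.98, adjusted p = 0.0171), Ang4 (-6.16, adjusted p = 7.79e-05) and Pglyrp1 (-2.16, adjusted p = 0.00397) rose in code LI and did not pass in code SI. Ces1e, one of the genes most like Reg3g, had a difference of 2.10 (adjusted p = 0.0194), with changes of -1.93 in code SI and -3.93 in code LI. The calls of Socs3, Tlr5, Tgm2, Pim1 and Ces1e were each lost when some of the mice were left out.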

How the results depend on the processing

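No Reg gene reversed its direction past the threshold: of 359 alternative values for Reg genes, 338 kept direction and side of the threshold, 18 lost the call, 3 gained it and 0 reversed, and of 2466 for other named genes 2313, 103, 50 and 0. Within a gut fraction, lane 2 alone is the same fit as leaving out the lane 1 library, and both are in these totals. The 5 members called in code SI stayed 5 in all 14 alternatives; the 3 called in code LI became 4 with no low-count filter and 2 in the fit of all 18 libraries, where Reg4 was lost, and stayed 3 in the others. No setting moved the median of all genes by more than 0.06. Replicate block: the title numbers 1 to 3 are shared by BM and BMT, whose mouse numbers differ. Deviations of same-numbered libraries correlated at -0.22 to 0.42, and those of the same mouse number between tissues at -0.16 to 0.32. These values do not settle either pairing. With the title number as a block 3028 genes were called in code SI and 5367 in code LI, and the members called stayed at 5 and 3. The interaction between fractions was the least stable result: 1 member was called with the mouse block, 0 with no replicate block, 0 with DESeq2 size factors, 0 by the DESeq2 Wald test, 0 with the 12 gut libraries alone, 2 by limma-voom, 2 with no low-count filter, and 0 to 1 when a mouse was left out; over all genes 848 calls became 1314 by the DESeq2 Wald test, 1842 with no low-count filter and 297 to 1121 when a mouse was left out. Leaving out a library gave 2086 to 3775 calls over all genes in code SI (3420; lowest without the BM library of mouse 4) and 569 to 2617 in liver (1528). Between the fractions, leaving out a mouse gave 2829 to 4996 calls in BM (4690; lowest without mouse 4) and 2404 to 3912 in BMT (3799; lowest without mouse 6), with 3 to 5 members called in BMT (3 without mouse 10). The cause of these shifts was not tested. Depth limited Reg1 and Reg3a in code LI and every Reg gene in liver.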

Other observations

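In bulk liver, where Reg transcripts were at the limit of detection, members of some of the pathway lists were called higher. Of 26 interleukin 22 and STAT3 targets, 18 were tested, with 11 higher and 1 lower in BMT (median 1.6), where 7.46% of 14134 genes were called higher and 3.35% lower. The cytokine list had 0 of 6 tested members higher by edgeR, with 2 at an unadjusted p under 0.05. Il18 was lower (-0.92 ± 0.16, edgeR adjusted p = 0.0105), a call lost in 2 of 14 alternatives. Ifng stood at 0, 0.136 and 0.373 CPM in BM and 0.652, 0.851 and 1.98 CPM in BMT. It was just short of a call (edgeR adjusted p = 0.0512). The DESeq2 Wald test (adjusted p = 0.00263) and some other alternatives called it, though not all did (adjusted p up to 0.167). In the same libraries 15 of 15 neutrophil and monocyte markers were higher (sum 54.2 to 64.6 CPM in BM and 260 to 826 CPM in BMT), and 15 of 15 T cell markers (4.66 to 9.41 CPM and 78.1 to 80 CPM). Some T cell markers were scarce in BM and passed the low-count filter through their BMT libraries, so their part is no support. The neutrophil genes S100a8 and S100a9 are on the target list as well and Lcn2 is also made by neutrophils; all 3 are among the 11, and the part of these cells in the count was not tested. Il22ra1, the receptor chain of interleukin 22, rose by 1.51 ± 0.20 (edgeR adjusted p = 0.00435), Socs3 by 1.65 ± 0.23 (edgeR adjusted p = 0.00539), Nfkbiz by 1.53 ± 0.18 (edgeR adjusted p = 0.00319) and Tifa by 2.18 ± 0.35 (edgeR adjusted p = 0.0083). In the code SI epithelium Socs3, Nfkbiz and Tifa were called lower in the same comparison; the difference between liver and epithelium was not tested.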
